A study of Mus musculus with 6 samples.

Results

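The genes described here are the semaphorins, their plexin receptors and the neuropilins, 31 genes among the 24982 rows of the count matrix. Membership was set by gene symbol: 20 semaphorins of classes 3 to 7, 9 plexins and 2 neuropilins, with no measured value in the rule. RNA came from sorted Lgr6-lineage keratinocytes of mouse back skin, with 1 library from the denervated left side and 1 from the normal right side of each of 3 animals (890, 892 and 899). All mice carried Lgr6-EGFP-Ires-CreERT2, which drives GFP and an inducible Cre from the Lgr6 locus, and R26loxP-stop-loxP-tdTom, a reporter that Cre switches on for good. Each received 20 µg of tamoxifen on postnatal day 42, so both sides had the same label, and cells were taken 4 weeks after the nerves of the left side had been dissected away through a midline incision. Since tdTomato is heritable, the sort holds descendants of Lgr6 cells as well as cells that still express Lgr6. The series' design text names GFP, Tomato and Itga6 as sort markers, while the protocol names the Tomato label and CD49f (Itga6). No sham dissection of the right side is described, so the loss of nerves cannot be told apart from the operation or from the side of the body. With the animal as a block, a p-value weighs the difference between sides against how much such differences vary. edgeR, the main test here, takes that variation partly from the gene's own 3 animals and partly from all tested genes. The spread between animals themselves is taken out by the block.

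Semaphorins are secreted or membrane-bound proteins best known for turning growing axons away, and plexins are the receptors that carry their signal into the cell. Most secreted class 3 semaphorins bind a plexin of type A only together with a neuropilin, Nrp1 or Nrp2, whereas class 4 semaphorins bind plexins of type B directly. In skin, keratinocytes are a source of semaphorins for the sensory fibres that enter the epidermis, Sema3a being the best studied of these repellents. Plexins B1 and B2 are also receptors of the keratinocytes themselves.

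Library totals ran from 9610071 to 26167593 counts (normal against denervated p = 0.2, exact two-sided permutation test of the 2 groups that does not use the pairing, whose smallest possible p is 0.1). In each of the 3 animals the denervated library had the smaller total. CPM here are counts scaled to library size, and 3 counts, the limit that a count of 0 allows for counting error only, came to 0.115 to 0.312 CPM depending on the library. The keratinocyte markers Krt5, Krt14, Itga6, Itgb4, Trp63 and Lgr6 were present in every library. Of 6 fibroblast and 6 endothelial markers, none reached a mean of 1 TPM (a transcript level scaled to gene length and library size), and the endothelial markers Cdh5, Emcn and Cldn5 had 0 counts in all 6 libraries. Some immune RNA was present, with Cd207 of Langerhans cells at 11.1 to 21.6 CPM, the antigen presentation gene Cd74 at 41.3 to 74.0 CPM and Cd3e of T cells at 0.939 to 3.05 CPM. Thy1, also on the T cell list, stood at 89.2 to 157 CPM. The denervated library of animal 890 lay at −37.6 on principal component 1 of all tested genes, the next lowest library at −9.73 and those of animal 899 at 21.1 and 24.5.

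Of the 31 genes, 18 had a mean of at least 1 TPM over the 6 libraries, 6 lay between 0.1 and 1 TPM, and 7 lay below 0.1 TPM. The genes closest to the limit of 1 TPM were Sema7a, at 1.35 TPM, and Sema6a, at 0.972 TPM. Transcripts of secreted class 3 semaphorins made up 72.9% to 77.9% of all semaphorin TPM, depending on the library. Sema3c was the most abundant gene of the family. It stood at 269, 284 and 262 TPM on the normal side, in the order of animals 890, 892 and 899, and at 233, 276 and 268 TPM on the denervated side, and ranked 466th of 24972 genes by mean TPM. Sema3d followed with 140, 154 and 138 TPM on the normal and 122, 168 and 134 TPM on the denervated side. Together Sema3c and Sema3d accounted for 60.5% to 65.6% of semaphorin TPM. Sema3f, a class 3 member that binds Nrp2, ranged from 64.7 to 100 TPM over the 6 libraries, and Sema3e, which binds plexin D1 without a neuropilin, from 2.63 to 11.3 TPM.

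**Figure D1:**
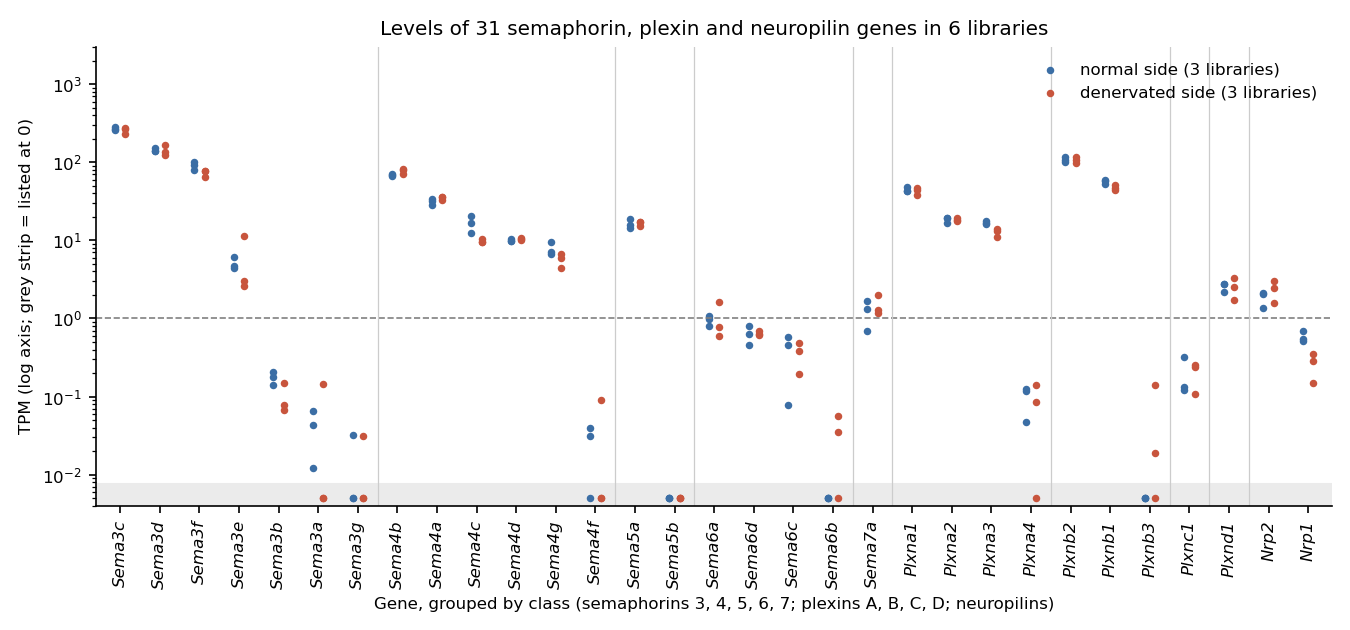
TPM (log axis) of each of the 31 genes in the 3 normal (blue) and 3 denervated (red) libraries, 1 point per library, grouped by class, with values of 0 drawn in the grey strip and a dashed line at 1 TPM. Sema3c and Sema3d lie above 100 TPM in every library, whereas Nrp1 stays below 1 TPM in all 6.

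The other class 3 genes were close to silent. Sema3a had 1, 3 and 3 counts on the normal side and 0, 7 and 0 on the denervated side. Sema3b had 34 counts and Sema3g 3 counts over all 6 libraries. This contrast ran through gene neighbourhoods. On chromosome 5, Sema3d, Sema3a, Sema3e and Sema3c follow each other within 5.35 Mb (mm10, 12383385 to 17730268), and Sema3a, at a mean of 0.0439 TPM, lies between Sema3d at 143 TPM and Sema3e at 5.38 TPM. On chromosome 9, Sema3b at 0.136 TPM lies 72.3 kb from Sema3f at 82.2 TPM. Neighbouring family members thus differed in level in all 6 libraries.

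Among the membrane-bound semaphorins, class 4 was the most abundant, with a summed level of 129 to 146 TPM. Sema4b had the highest level of class 4, at 66.3 to 82.5 TPM, followed by Sema4a at 28.0 to 36.2 TPM, Sema4c at 9.44 to 20.7 TPM, Sema4d, a ligand of plexins B1 and B2, at 9.78 to 10.6 TPM, and Sema4g at 4.47 to 9.43 TPM. Sema4f had 6 counts in all. Sema5a, a transmembrane protein with thrombospondin repeats, stood at 14.3 to 18.8 TPM, while its relative Sema5b had 0 counts in every library. Class 6 semaphorins, which signal through type A plexins without neuropilins, summed to only 1.66 to 2.66 TPM over 4 genes. The membrane-anchored Sema7a, which binds plexin C1 and beta-1 integrin, stood at 0.687 to 1.99 TPM.

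On the receptor side, Plxnb2 was highest and made up 41.7% to 47.0% of plexin TPM. It stood at 106, 101 and 118 TPM on the normal side and at 99.0, 107 and 116 TPM on the denervated side. Plxnb1 ranged from 44.1 to 58.8 TPM, Plxna1 from 37.8 to 48.4 TPM, Plxna2 from 16.8 to 19.4 TPM and Plxna3 from 10.9 to 17.9 TPM. Plxnd1, the receptor of Sema3e, did not exceed 3.30 TPM, and Plxnc1 and Plxna4 did not exceed 0.316 and 0.140 TPM. Plxnb3 had 8 counts in all 6 libraries. The neuropilins were low: Nrp2 stood at 1.84 ± 0.431 TPM on the normal and 2.35 ± 0.721 TPM on the denervated side (SD, n = 3) and Nrp1 at 0.148 to 0.688 TPM over the 6 libraries. Summed class 3 semaphorin TPM was 126 to 282 times the summed neuropilin TPM, and summed type A plexin TPM was 19.8 to 44.4 times as high. The cells therefore held mRNA for class 3 ligands and for type A plexins far in excess of mRNA for the neuropilins.

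The denervated and normal skin of each animal differed in nerves, in operation and in side of the body. In denervated skin mRNA of the semaphorin Sema4c fell by 39.6% and that of the receptor Plxna3 fell by 24.2%, and no member was called higher. The most abundant ligands and receptor, Sema3c, Sema3d and Plxnb2, had log2 fold changes of −0.054 ± 0.079 (SE), −0.021 ± 0.082 and 0.0046 ± 0.078. Of the 31 genes, 24 passed the filter on low counts and were tested with the animal as a block, so that each animal's sides were compared. Those left out were Sema3a, Sema3b, Sema3g, Sema4f, Sema5b, Sema6b and Plxnb3. With edgeR's quasi-likelihood test and an adjusted p below 0.05 over all 12310 tested genes, 2 of the 24 were called, both lower. Over all tested genes the percentage called was 3.46, of which 2.88 were higher and 0.577 lower. Scaling by library totals instead of TMM gave 2.36, of which 1.4 were higher and 0.959 lower, and DESeq2 gave 3.86 with the block and 2.93 without it, genes that it left without an adjusted p counted as not called, and Sema4c and Plxna3 were the members called in each of these. The median log2 fold change of the 24 genes was −0.017, against −0.024 for all tested genes. No test was made of whether the members' share differs from that of other genes.

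Sema4c encodes a transmembrane semaphorin that is a ligand of plexin B2 (ENSMUSG00000026121.13, chromosome 1, 36548639 to 36558349, minus strand, mm10). It stood at 47.5, 40.1 and 29.0 CPM on the normal side, in the order of animals 890, 892 and 899, and at 22.8, 23.6 and 22.8 CPM on the denervated side. The groups did not overlap, and the 3 denervated libraries lay close together (23.1 ± 0.430 CPM, SD, n = 3) while the normal libraries were spread out (38.9 ± 9.29 CPM, n = 3). The fitted log2 fold change was −0.73 ± 0.13 (SE, adjusted p = 0.0103, edgeR). By animal the log2 difference was −1.06 in 890, −0.77 in 892 and −0.35 in 899, in the order of their normal levels. Totals of the normal libraries fell in the same order, at 26167593, 20724439 and 13801154 counts. The denervated totals were 9610071, 14021730 and 13232950 counts, and the part of depth in the Sema4c difference was not tested. Without the animal as a block the adjusted p was 0.163, in an edgeR fit that called 0 of all 12310 genes (0.0%, with 12.5% at an unadjusted p below 0.05), and over all 13 alternatives it ran from 5.03e-08 to 0.163. DESeq2 without the block gave an adjusted p of 0.00237. In the authors' deposited table, Sema4c had a log2 fold change of −0.71 with an adjusted p of 0.00291. A gene on the opposite strand, D430040D24Rik, overlaps 649 bases of Sema4c, and whether its reads were kept apart was not tested.

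Plxna3 encodes plexin A3, a receptor that acts with Nrp2 in the response to Sema3f (ENSMUSG00000031398.13, chromosome X, 74329066 to 74344689, plus strand, mm10). It stood at 69.9, 80.7 and 75.4 CPM on the normal side and at 50.6, 60.9 and 59.9 CPM on the denervated side. Every denervated library lay below every normal one, by a similar amount in each animal, with log2 differences of −0.47, −0.40 and −0.33. The fitted log2 fold change was −0.40 ± 0.08 (SE, adjusted p = 0.0191, edgeR). The adjusted p was 0.180 without the block and 0.115 without animal 892, and ran from 0.000903 to 0.190 over the 13 alternatives. In the authors' deposited table the log2 fold change was −0.39 with an adjusted p of 0.0165. The other type A plexins differed by little, with log2 fold changes of −0.047 ± 0.084 for Plxna1 and 0.016 ± 0.077 for Plxna2, and Plxna4 was too low for a close estimate (−0.53 ± 0.64). Whether Plxna3 differs from them in its response was not tested.

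**Figure D2:**
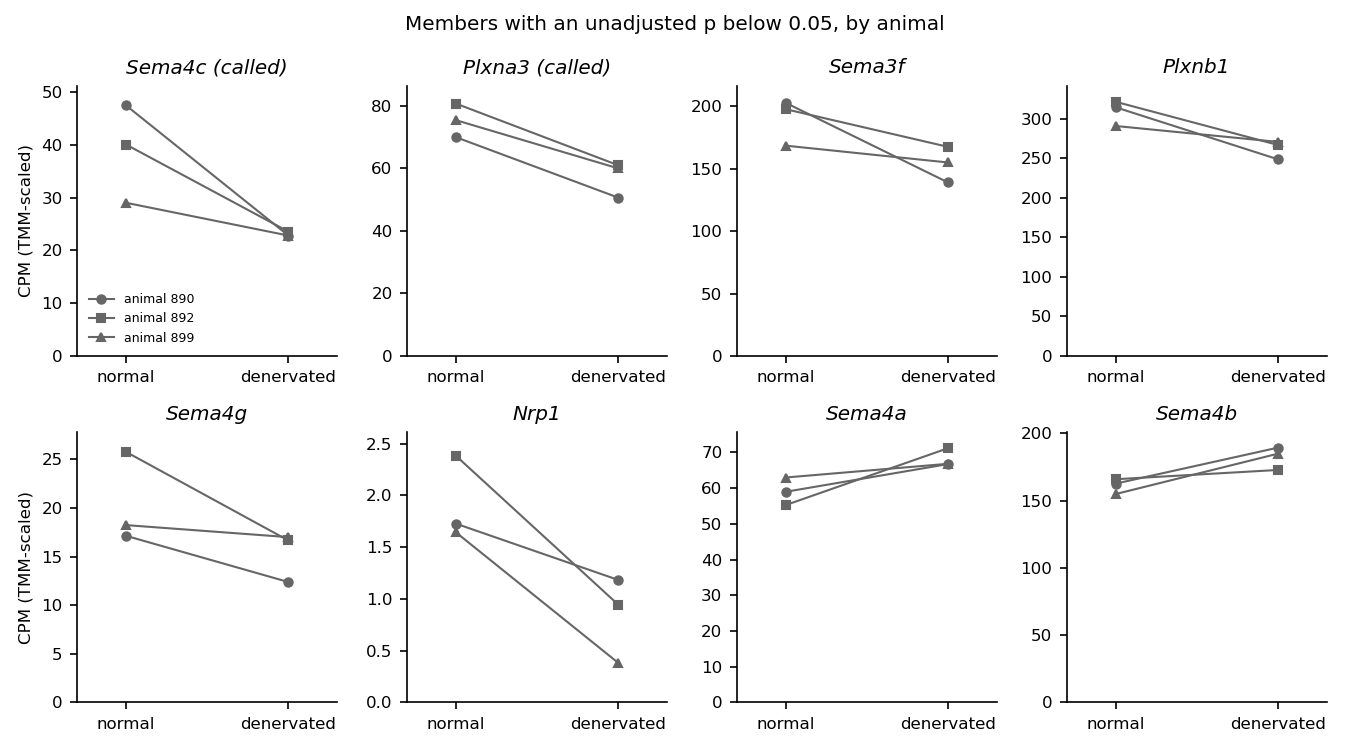
TMM-scaled CPM on the normal and denervated side for the 8 members with an unadjusted p below 0.05, 1 line per animal, with axes that start at 0. Lines of Sema4c converge at 22.8 to 23.6 CPM on the denervated side, and lines of Plxna3 run nearly parallel.

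The sequences upstream of the RefSeq start sites of these 2 genes are shown because they are the members that fell. Each is 250 bases long, 5′ to 3′ on the gene's strand, from RefSeq's GRCm38.p6 (mm10) table, which held 26 of the 31 genes. RefSeq had 2 entries for Sema4c, of which 1 is printed and described, and 1 entry for Plxna3. Capitals mark the GC box GGGCGG, a motif bound by Sp and Klf factors, on either strand (CCGCCC is its reverse complement). The Sema4c window is chr1:36558382-36558631 on the minus strand and the Plxna3 window is chrX:74328816-74329065 on the plus strand.
Sema4c: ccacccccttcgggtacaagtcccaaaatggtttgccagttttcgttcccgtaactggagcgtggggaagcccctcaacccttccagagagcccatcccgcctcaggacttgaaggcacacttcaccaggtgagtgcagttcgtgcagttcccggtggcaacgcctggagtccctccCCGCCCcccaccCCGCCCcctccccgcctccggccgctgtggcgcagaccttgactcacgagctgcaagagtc
Plxna3: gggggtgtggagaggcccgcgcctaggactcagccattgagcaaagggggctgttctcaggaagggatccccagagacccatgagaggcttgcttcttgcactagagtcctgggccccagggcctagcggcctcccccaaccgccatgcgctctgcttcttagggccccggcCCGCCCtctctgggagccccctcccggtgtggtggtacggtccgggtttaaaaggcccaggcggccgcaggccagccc

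The Sema4c window held 2 GC boxes and the Plxna3 window 1, and 32.7% of 32841 upstream windows of this length held at least 1. The AP-1 motif TGANTCA occurred once in the Sema4c window (tgactca, near its 3′ end) and not in that of Plxna3, against 6.75% of all windows. The share of G and C was 64.4% for Sema4c, above that of 81.6% of all windows, and 68.0% for Plxna3, above that of 87.8%. They held 15 and 12 CG dinucleotides, more than 72.7% and 66.5% of all windows, whose median was 6. These letters describe the windows only, since no binding was measured.

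At an unadjusted p below 0.05, 8 of the 24 tested members stood out, 6 lower and 2 higher, a share of 33.3% against 18.2% of all tested genes (10.4% higher and 7.86% lower). The same 8 were the members whose denervated and normal CPM did not overlap, against a percentage of 19.0 over all tested genes (9.76 higher and 9.21 lower). Besides Sema4c and Plxna3 these were Sema3f, Plxnb1, Sema4g and Nrp1, with lower values on the denervated side, and Sema4a and Sema4b, with higher ones. None of these 6 passed the adjusted test.

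Sema3f stood at 203, 198 and 169 CPM on the normal side and 139, 168 and 155 CPM on the denervated side. These values ran nearly in the order of the library totals, and the part of depth was not tested. The highest denervated value lay just under the lowest normal one, and the difference was −0.54 in animal 890 against −0.12 in animal 899 on the log2 scale (fitted −0.30 ± 0.09 SE, adjusted p = 0.0760, edgeR). It passed when genes of low count were kept in (adjusted p = 0.00996) and without animal 899 (adjusted p = 0.00839), within a range of 0.00839 to 0.377 over the alternatives. Plxnb1, the receptor of Sema4d, had normal values of 315, 322 and 291 CPM and denervated values of 249, 267 and 271 CPM (fitted −0.24 ± 0.08 SE on the log2 scale, adjusted p = 0.117, edgeR). All 3 animals had less Plxnb1 on the denervated side, whereas single animals differed by −0.087 to 0.096 in Plxnb2. Without animal 899 Plxnb1 was called (adjusted p = 0.0254, range over the alternatives 0.0254 to 0.540).

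Sema4g stood at 17.1, 25.8 and 18.2 CPM on the normal side and 12.4, 16.7 and 17.0 CPM on the denervated side (−0.40 ± 0.14 SE, adjusted p = 0.131, edgeR). Its normal libraries were led by that of animal 892, and in animal 899 the sides differed by only −0.10. Without animal 899 it was called (adjusted p = 0.0341, range over the alternatives 0.0341 to 0.690). Sema4a, a semaphorin best known from immune cells, stood at 59.0, 55.3 and 63.0 CPM on the normal and 66.7, 71.2 and 66.8 CPM on the denervated side (0.21 ± 0.09 SE, adjusted p = 0.206, edgeR). Sema4b stood at 163, 166 and 155 CPM on the normal and 189, 173 and 185 CPM on the denervated side (0.18 ± 0.08 SE, adjusted p = 0.230, edgeR). Among T cell markers, Cd3e had a log2 fold change of 0.92, Cd3g of 0.23 and Thy1 of 0.14 (adjusted p = 0.232, 0.842 and 0.477, edgeR). Thy1 stood at 97.7 to 158 TPM, against 1.10 to 3.81 for Cd3e and 1.42 to 2.82 for Cd3g, and its source was not tested. Among myeloid and Langerhans markers, Cd74 had 0.28 (adjusted p = 0.198, edgeR), Ptprc 0.37, Cd207 0.19, Csf1r 0.11 and Adgre1 0.47, none of them called. The part of immune cells in the level of Sema4a was not tested.

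Nrp1 had the largest fitted difference among the tested members, on few reads. It had 46, 51 and 23 counts on the normal side and 11, 13 and 5 on the denervated side, or 1.73, 2.38 and 1.64 CPM against 1.18, 0.945 and 0.383 CPM. All 3 animals had less Nrp1 on the operated side (fitted −1.24 ± 0.45 SE on the log2 scale, adjusted p = 0.152, edgeR), and it was called in none of the 9 alternatives that gave it an adjusted p, which neither DESeq2 fit did. Nrp2 went the other way in 2 of 3 animals and had 121, 162 and 98 counts on the normal and 95, 78 and 107 counts on the denervated side (0.32 ± 0.26 SE, adjusted p = 0.541, edgeR), with a log2 fold change of −0.10 without animal 890. Endothelial cells and fibroblasts also express Nrp1. Summed CPM of the 6 endothelial markers was 0.420 to 1.59 on the normal and 0.832 to 1.28 on the denervated side, and that of the 6 fibroblast markers was 1.64 to 4.58 and 1.04 to 1.78, and their part in the Nrp1 difference was not tested. In bulk RNA, fewer cells of a type and less RNA per cell cannot be told apart.

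**Figure D3:**
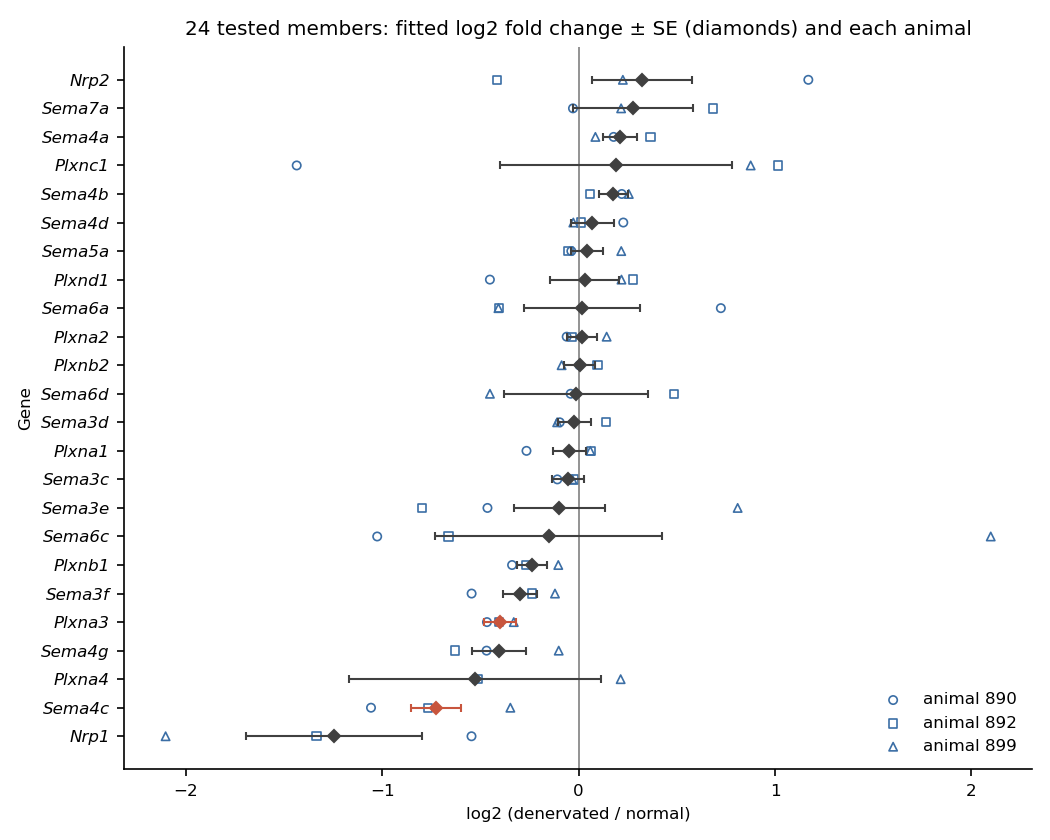
Fitted log2 fold change of denervated over normal (diamonds, bars ± SE) for the 24 tested members, called genes in red, with each animal's own log2 difference as open symbols. Plxna4 has no symbol for animal 890, whose denervated library had 0 counts. Sema3e is split, with animal 899 at 0.81 and the other two at −0.46 and −0.80.

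Sema3e varied most between animals among the members above 5 TPM. It stood at 15.7, 17.6 and 22.7 CPM on the normal side and at 11.4, 10.1 and 39.7 CPM on the denervated side. The denervated libraries of animals 890 and 892 lay below every normal library, and that of animal 899 was the highest of all 6. The fitted log2 fold change was −0.10 ± 0.23 (SE, adjusted p = 0.863, edgeR). Without animal 899 it was −0.64 with an adjusted p of 0.0323, against 0.0323 to 0.954 over the alternatives that gave a value. Its receptor Plxnd1 stood at 10.5 ± 1.27 and 10.8 ± 2.76 CPM (SD, n = 3). Without animal 899, 6 members were called, all lower, namely Sema4c, Plxna3, Sema3f, Plxnb1, Sema4g and Sema3e, in a fit that called 7.74% of all genes. Without animal 892 only Sema4c was called (2.01% of all genes), and without animal 890 both Sema4c and Plxna3 were (3.11% of all genes). Both limma fits called none of 18 members and 0.00843% of all genes.

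The remaining tested members had adjusted p-values from 0.541 to 0.990 (edgeR). Sema4d stood at 26.6 ± 1.83 and 27.9 ± 2.32 CPM and Sema5a at 96.0 ± 12.3 and 98.5 ± 7.45 CPM (SD, n = 3). Low members were loosely estimated, with standard errors of 0.31 for Sema7a, 0.30 for Sema6a, 0.37 for Sema6d, 0.58 for Sema6c and 0.59 for Plxnc1 on the log2 scale, so that sizeable differences were not detectable at this depth.

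**Figure D4:**
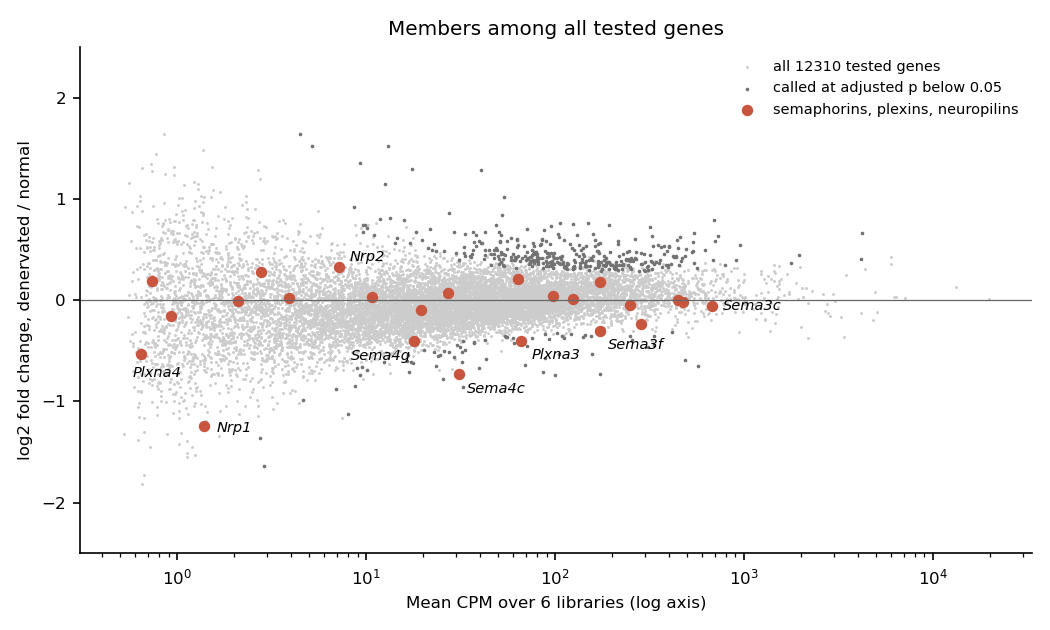
Fitted log2 fold change against mean CPM (log axis) for all 12310 tested genes (light grey), those called (dark grey) and the 24 members (red). Sema4c lies at −0.73 and Plxna3 at −0.40, and the abundant Sema3c at −0.054.

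The other genes of the pathway were 65 genes listed for their part in semaphorin signalling, of which 55 were tested. A single gene of these was called, or 1.82% against 3.46% of all tested genes. This was Furin, the protease that cleaves secreted class 3 semaphorins, which rose from 145 ± 4.60 to 180 ± 12.7 CPM (log2 fold change 0.32 ± 0.08 SE, adjusted p = 0.0386, edgeR) and was higher in 3 of 3 animals. The call was lost with library totals (adjusted p = 0.0799), without the block (0.180), in both limma fits (0.157 and 0.154), without animal 890 (0.0625) and without animal 892 (0.231), and the range over the 13 alternatives was 0.00384 to 0.231. None of 11 tested co-receptors and alternative receptors, 30 cytoplasmic effectors or 5 VEGF ligands and receptors passed. At an unadjusted p below 0.05 these 3 groups held 3, 4 and 1 genes (27.3%, 13.3% and 20.0% of those tested), and all 55 together held 9, or 16.4% against 18.2% of all tested genes. The next smallest p-values were those of Itgb1, the beta-1 integrin that serves as a receptor for Sema7a (545 ± 49.2 and 703 ± 78.5 CPM, adjusted p = 0.0679), Met, the receptor tyrosine kinase that pairs with type B plexins (169 ± 14.7 and 201 ± 7.51 CPM, 0.0764), and Rap1b, a small GTPase on which plexins act (239 ± 22.9 and 279 ± 15.2 CPM, 0.113), all in edgeR. Without animal 890 the log2 fold change of Itgb1 was 0.20, against 0.37 with it. Over the 13 alternatives Itgb1 was called in 5, among them both DESeq2 fits, Met in 3 and Rap1b in 1. Other pathway genes, named here after their values were seen, were well expressed: Chl1, L1cam and Ptk7 averaged 87.4, 20.3 and 69.8 TPM and Vegfa, the neuropilin-binding growth factor, 72.8 TPM. Of the Vegfa receptors, Kdr had 2 counts in all 6 libraries and Flt1 averaged 0.581 TPM. Flt1 had a log2 fold change of −0.67 ± 0.35 (SE, adjusted p = 0.333, edgeR).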

How the data were processed

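Per the submitters' processing notes, STAR 2.6.1a, Salmon 0.11.2 and mm10 were used, with no role given. For the annotation, the counting tool and its strand option the sources used here give nothing. The authors deposited a matrix of raw counts, TPM values, per-sample estimated counts (expected counts, not whole, per the file headers) and a table of their own log2 fold changes with p-values and adjusted p-values. Its direction, denervated over normal, was checked against the group means on 89 genes, of which 87 had the same sign.

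Membership was by gene symbol only, but this family and the gene lists were picked with earlier results of these data known. Levels across genes are deposited TPM, and CPM of single genes were scaled by TMM. Summed marker CPM and the CPM of 3 counts were scaled by library totals only. The main test was edgeR 4.0.16 (R 4.3.3), quasi-likelihood, with the animal as block, filterByExpr (minimum count 10, minimum total 15) and Benjamini-Hochberg adjustment over 12310 genes, called below 0.05. SE was taken as the size of the log2 change divided by the root of edgeR's F. The script was tested on simulated data. The labels' protocols state that each mouse gave both samples. Deviations from group means correlated at 0.356, 0.361 and 0.443 for same-animal libraries and at −0.278 to −0.0407 for libraries of different animals. These correlations ran across genes, which are not independent. Alternatives were no block, DESeq2 1.42.0, limma 3.58.1 on log2(TPM + 1) and log2(TPM + 0.1) for genes with a mean of at least 1 TPM, other scaling and filters, rounded estimated counts, and leaving out each animal. Every member that was tested is named; those with an unadjusted p below 0.05 are given in full, and of the pathway list those called or the 4 with the smallest p. Coordinates are from GENCODE vM21 (mm10) by symbol.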

Additional observations from a re-analysis of the deposited data

How the results depend on the processing

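The count of called members (2 of 24, both lower) was 2 with DESeq2 size factors, library totals, the filter at a mean of 1 CPM (21 tested), estimated counts and DESeq2 with or without the replicate block. Each time these were Sema4c and Plxna3. With no filter it was 3 of 30 tested, Sema3f being added. Of all genes, library totals called 2.36%, and DESeq2 3.86% with and 2.93% without the block. That share was not computed for DESeq2 size factors, the 1 CPM filter, estimated counts or no filter. The member count was 0 without the block in edgeR (7 of 24 at an unadjusted p below 0.05), which called 0 of all 12310 genes, 12.5% of them at an unadjusted p below 0.05. With limma on log2(TPM + 1) or log2(TPM + 0.1) it was 0 (4 and 5 of 18 unadjusted, a share not computed for all genes). Leaving out an animal gave 1 to 6, against 2.01% to 7.74% of all genes. The called pathway genes (1, higher) numbered 0 without the block in edgeR, with library totals and in both limma fits, and 0 to 5 when an animal was left out. They numbered 3 with no filter and 3 with DESeq2 and the block (Furin, Itgb1 and Met), and 2 with DESeq2 without it (Furin and Itgb1). Where the share of all genes in these fits was computed, it is the one given for the members. Both called members kept their sign under all 13 alternatives. Without the block Sema4c stood at −0.76 and Plxna3 at −0.39 (log2), so their estimates hardly moved while the adjusted p rose. All of the 34 changes of sign fell on members that were called neither in the main test nor there. With library totals Plxna2 stood at −0.046, Plxnb2 at −0.057, Plxnd1 at −0.031, Sema5a at −0.021 and Sema6a at −0.046. With limma on log2(TPM + 1) Plxna2, Plxnb2 and Plxnd1 stood at −0.0036, −0.013 and −0.034, and with log2(TPM + 0.1) at −0.0037, −0.013 and −0.055. Sema3e stood at 0.15 without the block and at 0.14 in DESeq2 without it, Plxnd1 at −0.0053 and Sema6d at 0.11 in the estimated counts, and Sema6d at 0.0022 in DESeq2 with the block. When an animal was left out, log2 fold changes ran from −0.10 to 0.72 for Nrp2, −0.099 to 0.062 for Plxna1, −0.046 to 0.057 for Plxna2, −0.025 to 0.051 for Plxnb2, −0.23 to 0.94 for Plxnc1, −0.085 to 0.25 for Plxnd1, −0.086 to 0.023 for Sema3d, −0.64 to 0.25 for Sema3e, −0.0072 to 0.12 for Sema4d, −0.044 to 0.11 for Sema5a, −0.41 to 0.22 for Sema6a, −0.81 to 0.24 for Sema6c and −0.24 to 0.22 for Sema6d. The cause of these changes was not tested. The count of members at a mean of at least 1 TPM was 18 in the per-sample files too, and 22 members had more than 3 counts in every library. The data hold 3 animals and no sham side, and few reads lie behind low members such as Nrp1, at under 3 CPM.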
